A study of Mus musculus with 8 samples.

Results

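Cells that sit in the bone marrow niche, and blood stem cells that return to it from the circulation, use surface receptors to find it, to cross its vessels and to stay. The chemokine receptor CXCR4 holds stem and progenitor cells near stromal cells that secrete its ligand CXCL12, and selectin ligands, immunoglobulin-type adhesion molecules and integrins act in the steps of rolling, firm arrest and passage through the endothelium. The 9 genes described here encode non-integrin receptors and adhesion molecules of these steps. They are Robo4, Cxcr4, Icam1, Icam2, Esam, Jam3, Selplg, Cd34 and Cd47, taken by symbol from the 23282 named genes of the deposited count table. All 9 were found there, and all 9 were among the 13005 genes with enough reads to be tested.

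RNA of hematopoietic stem and progenitor cells from mouse bone marrow was sequenced in 4 libraries labelled Hdc-/-, from mice on a C57BL/6 background, and in 4 libraries from C57BL/6 mice labelled WT. Each sample held 2000 sorted cells. Hdc encodes histidine decarboxylase, the only enzyme that makes histamine. The sources used here do not give the sort's surface markers, the part of Hdc that was deleted, or the age, sex and number of mice behind a sample. The comparison asks how the progenitors differ in mice that carry the altered Hdc gene.

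Depth was 17218697 to 19775106 reads per library in the group labelled Hdc-/-, against 16322738 to 18054954 in WT. The check of the targeted gene went against the labels. Hdc had 740 to 875 reads in the libraries labelled Hdc-/- against 199 to 275 reads in WT, a difference of 1.58 on the log2 scale (SE 0.11; edgeR's quasi-likelihood test, adjusted p = 6.4e-08). Without the position of the deletion the count does not test the allele itself. All directions below rest on the labels, and the mutant samples are named "labelled Hdc-/-" for that reason. WT 1 stood apart from the other WT libraries: its summed level of 14 stem and progenitor markers was 3879 CPM (reads of a gene scaled by library size), against 4619 to 4680 CPM in WT 2, 3 and 4, and its summed neutrophil markers reached 3820 CPM, against 2498 to 2960 CPM in those 3. Values of the 9 genes that WT 1 moves by over 1.5 times are therefore given with and without it.

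Among the 9 genes, Robo4 was the one that rose in the libraries labelled Hdc-/- in the edgeR fit, by a small step, and its call was lost in 7 of 19 alternatives. Icam1 lay just outside the threshold and was called higher in 5 of them. None fell in edgeR, in DESeq2 or in limma-voom. That is 1 of 9 higher, where 2.05% of all tested genes were higher, and 0 of 9 lower, where 2.71% were lower. A single gene is too few to read against those shares. At an unadjusted p under 0.05 stood 3 of the 9, Robo4, Icam1 and Icam2, where 18.7% of all tested genes did. Robo4 and Icam1, 2 of the 9, were higher at that level, where 9.26% of all tested genes were. In the same 3 genes the groups did not overlap, where 12.5% of tested genes did not, and in 2 of them the higher group was the one labelled Hdc-/-, where that held for 5.64%. The log2 fold change was above 0 in 5 of 9, where it was in 50.9% of all tested genes. The median log2 fold change of the 9 was 0.03, against 0.00 over all tested genes, and the median size of change regardless of sign was 0.17, against 0.12. In bulk RNA, fewer cells of a type and less RNA per cell cannot be told apart, so each value describes the sorted population as a whole.

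**Figure D1:**
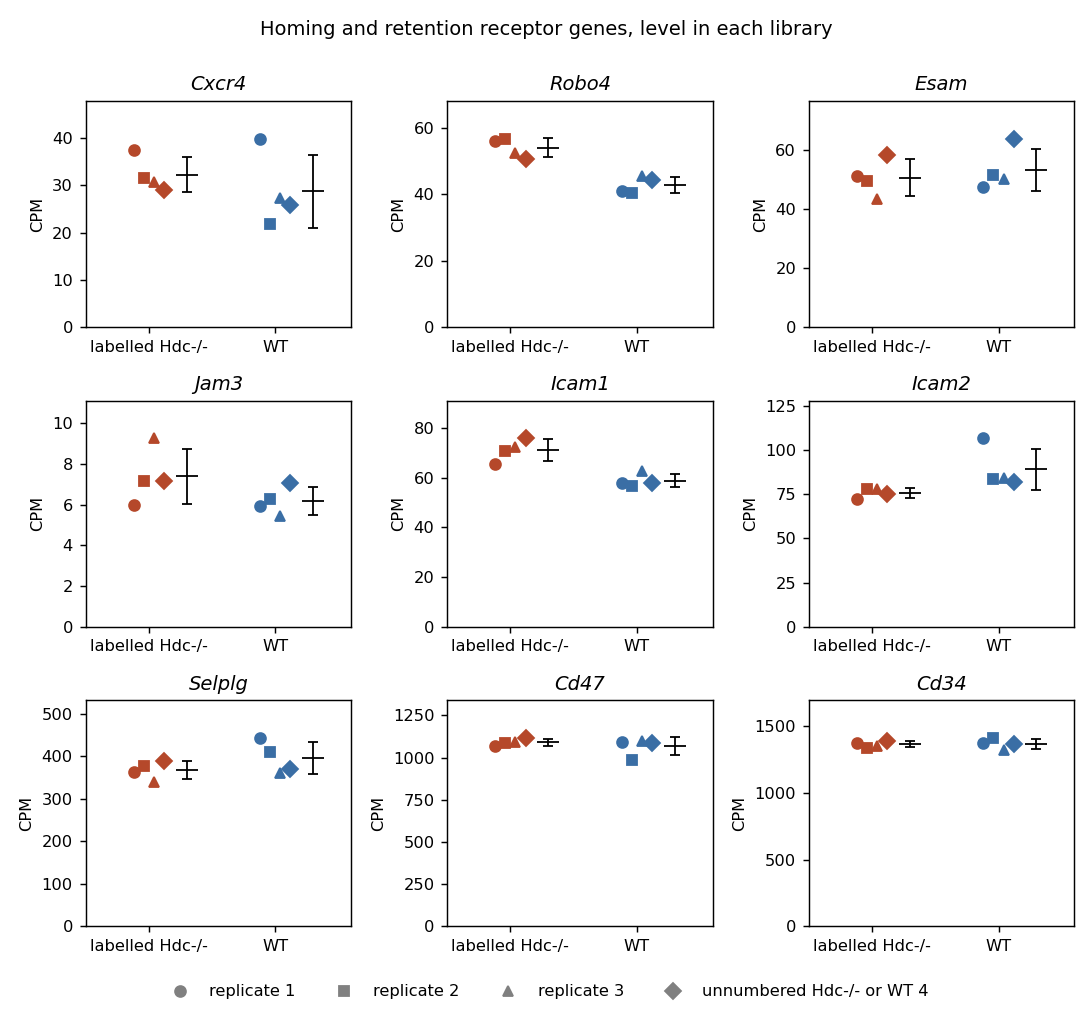
Level of each of the 9 genes (vertical axis, CPM after TMM scaling, from 0) in the 4 libraries labelled Hdc-/- (left, orange) and the 4 WT libraries (right, blue); symbols mark the replicate, and the black bar is the mean with the SD. Robo4 and Icam1 lie higher and Icam2 lower in every library labelled Hdc-/- than in any WT library, while the other 6 genes overlap.

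Promoter sequences are shown for Robo4, which rose, for Icam1, which lay next to the threshold, and for Cxcr4, whose value turned on 1 library. RefSeq's table (GRCm38.p6) has the promoters of 5 of the 9 genes. Printed are the 250 bases before the annotated start, on the strand of the gene, for Robo4 (chr9:37401722-37401971, plus strand), Icam1 (chr9:21015690-21015939, plus strand) and Cxcr4 (chr1:128592300-128592549, minus strand). Capitals mark GGAA or its reverse complement TTCC, the core bound by ETS factors, a family with many members active in blood cells and endothelium.
Robo4: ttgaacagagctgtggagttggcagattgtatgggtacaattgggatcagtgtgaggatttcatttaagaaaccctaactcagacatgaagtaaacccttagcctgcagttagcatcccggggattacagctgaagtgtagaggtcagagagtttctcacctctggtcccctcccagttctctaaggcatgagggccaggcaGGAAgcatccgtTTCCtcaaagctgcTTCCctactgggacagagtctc
Icam1: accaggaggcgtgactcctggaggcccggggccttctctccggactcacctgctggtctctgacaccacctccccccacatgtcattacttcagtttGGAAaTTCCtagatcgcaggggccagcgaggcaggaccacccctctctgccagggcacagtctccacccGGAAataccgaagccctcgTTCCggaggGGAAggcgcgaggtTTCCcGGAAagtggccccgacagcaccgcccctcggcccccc
Cxcr4: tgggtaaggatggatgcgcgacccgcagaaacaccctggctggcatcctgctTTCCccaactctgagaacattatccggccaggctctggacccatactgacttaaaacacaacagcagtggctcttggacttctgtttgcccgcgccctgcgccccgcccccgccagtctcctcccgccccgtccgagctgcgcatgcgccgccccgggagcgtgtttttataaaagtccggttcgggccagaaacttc

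The Robo4 window held 3 such cores, all lying between 22 and 48 bases before the start, and no GC box (GGGCGG or its reverse complement). The Icam1 window held 7 cores and 1 GC box, and Cxcr4 held 1 core and 3 GC boxes. Among 32851 promoter windows of the same length in the table, 93.4% had at least 1 core, the median was 3, and 3.82% had at least 7; 32.7% had a GC box. The 9-letter word GGAAATTCC (or its reverse complement), a site of the κB type, occurs once in the Icam1 window, 153 bases before the start, and in 0.286% of all windows. It overlaps 2 of the 7 cores counted there. The promoters of Cd34 and Cd47, whose levels are given below as steady, held 5 cores and 1 core. These matches describe letters and not binding, which was not measured here.

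Robo4 belongs to the Roundabout family of guidance receptors. Some other family members bind Slit proteins. Robo4 is known from endothelium and from mouse blood stem cells, where it acts beside Cxcr4 in lodging them in the marrow. Its level was 56.1, 56.7, 52.5 and 50.8 CPM in libraries 1, 2, 3 and the unnumbered one labelled Hdc-/-, against 41.1, 40.4, 45.6 and 44.3 CPM in WT libraries 1 to 4. The lowest library labelled Hdc-/- therefore lay above the highest WT library. Means were 54.0 ± 2.84 CPM in the libraries labelled Hdc-/-, against 42.9 ± 2.49 CPM in WT (SD, n = 4 each). This is a log2 fold change of 0.33 (SE 0.08, 95% interval 0.16 to 0.51), or 1.26-fold, with an adjusted p of 0.0286 over all 13005 genes by edgeR's quasi-likelihood test. The fold change stayed between 0.31 and 0.37 when any 1 library was left out, but the call did not hold in 5 of these 8 fits. The adjusted p from edgeR was 0.0869, 0.104 and 0.0663 without library 1, 2 or 3 labelled Hdc-/-, and 0.0938 and 0.0537 without WT 2 or WT 4. Without WT 1 the call held (0.32, adjusted p = 0.0269).

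Cxcr4, the receptor for CXCL12, did not pass, and its value depended on single libraries, WT 1 most of all. It was measured at 37.5, 31.6, 30.7 and 29.0 CPM in libraries 1, 2, 3 and the unnumbered one labelled Hdc-/-, against 39.8, 21.8, 27.4 and 25.8 CPM in WT libraries 1 to 4. WT 1 was the highest of all 8 libraries and the other 3 WT libraries were the lowest 3, so that the groups overlapped through WT 1 alone. The WT spread, a coefficient of variation of 27.0%, was the widest of any of the 9 genes in either group. With all libraries the log2 fold change was 0.17 (SE 0.15, 95% interval -0.16 to 0.49, adjusted p = 0.61 by edgeR). Without WT 1 it was 0.37 (adjusted p = 0.0725), without WT 2 it was 0.06 (adjusted p = 0.90), and without library 1 labelled Hdc-/- it was 0.08 (adjusted p = 0.85). The interval from all libraries leaves room for a rise as large as that of Robo4 and for a small fall.

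**Figure D2:**
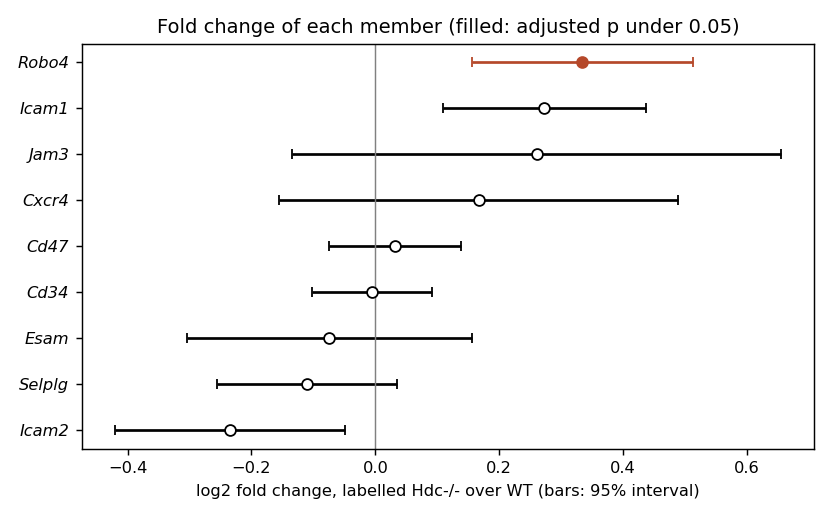
Log2 fold change of each gene, the libraries labelled Hdc-/- over WT (horizontal axis), with its 95% interval from the edgeR fit; the filled point marks an adjusted p under 0.05. Robo4 is filled at 0.33, the intervals of Icam1 and Icam2 miss 0 on opposite sides without passing the adjustment, and those of Cd34 and Cd47 are the narrowest.

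Icam1 and Icam2 encode ligands of the leukocyte integrin LFA-1. In the libraries labelled Hdc-/- they lay outside the WT range, Icam1 above it and Icam2 below it, but neither passed the threshold in edgeR. ICAM-1, induced by inflammatory signals in many cell types, and ICAM-2, present on resting leukocytes and endothelium, bind LFA-1, which consists of the products of Itgal and Itgb2. Icam1 had 65.4, 70.8, 72.3 and 75.7 CPM in libraries 1, 2, 3 and the unnumbered one labelled Hdc-/-, against 57.9, 56.8, 62.5 and 57.9 CPM in WT libraries 1 to 4. All 4 values of the libraries labelled Hdc-/- exceeded all 4 WT values. Its log2 fold change was 0.27 (SE 0.08, 95% interval 0.11 to 0.44), and the adjusted p of 0.0557 by edgeR lay just outside the threshold. It came inside it under library-size scaling (0.0498), upper quartile scaling (0.0490), DESeq2 (0.0123), sample weights (0.0297) or without WT 1 (0.0437). Over all 8 single-library omissions the adjusted p ran from 0.0437 to 0.175, so that neither a call nor its absence was stable for this gene.

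Icam2 stood at 72.3, 77.9, 78.0 and 74.9 CPM in libraries 1, 2, 3 and the unnumbered one labelled Hdc-/-, against 106.5, 83.8, 84.3 and 82.0 CPM in WT libraries 1 to 4. Every library labelled Hdc-/- was below every WT library, and WT 1 was far above the other WT libraries. The log2 fold change was -0.23 (SE 0.09, 95% interval -0.42 to -0.05, adjusted p = 0.15 by edgeR). Without WT 1 it was -0.14 (adjusted p = 0.25).

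**Figure D3:**
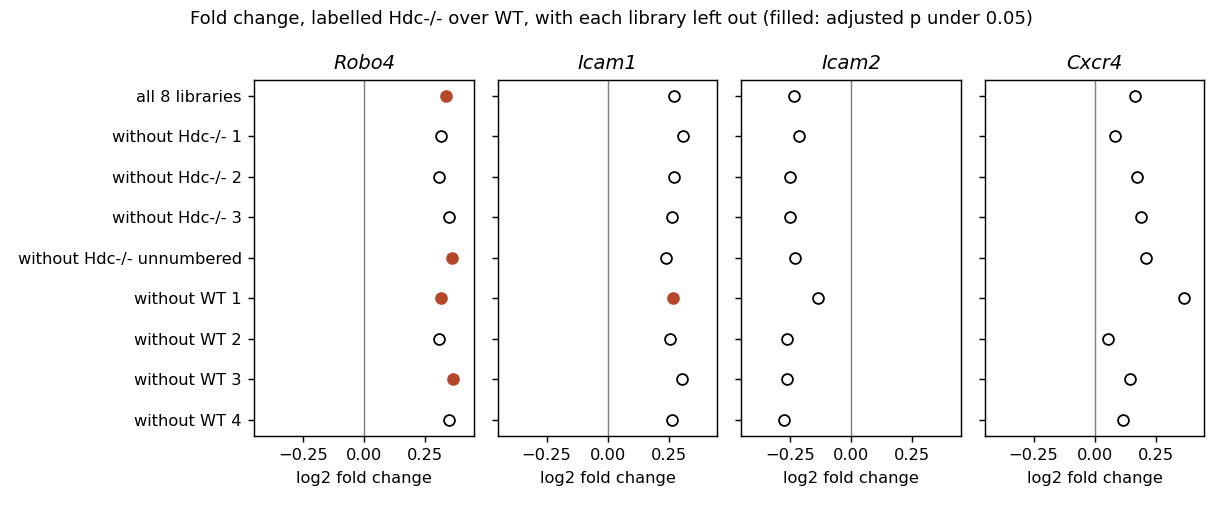
Log2 fold change of Robo4, Icam1, Icam2 and Cxcr4 (horizontal axes, the libraries labelled Hdc-/- over WT) with all 8 libraries (top row) and with each library left out in turn (rows below); filled points have an adjusted p under 0.05. Robo4 stays between 0.31 and 0.37 with 4 of 9 points filled, Icam1 is filled only without WT 1, and leaving out WT 1 takes Icam2 to -0.14 and Cxcr4 to 0.37.

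Esam and Jam3 encode junction-type immunoglobulin proteins of endothelial contacts that stem cells carry too; ESAM is used as a marker of mouse blood stem cells, and JAM-C, the product of Jam3, binds JAM-B on neighbouring cells. Esam had 51.0, 49.6, 43.4 and 58.4 CPM in libraries 1, 2, 3 and the unnumbered one labelled Hdc-/-, against 47.4, 51.5, 50.3 and 63.6 CPM in WT libraries 1 to 4. The groups overlapped over most of their range. Its log2 fold change was -0.07 (SE 0.11, 95% interval -0.30 to 0.16, adjusted p = 0.78 by edgeR), and it moved with single libraries. It was -0.01 without library 3 labelled Hdc-/- and -0.15 without the unnumbered one, -0.12 without WT 1 and 0.02 without WT 4. Jam3 was the gene with the fewest reads of the 9, with 118 to 180 reads in the libraries labelled Hdc-/- and 98 to 126 reads in WT. Levels were 5.97 to 9.25 CPM in the libraries labelled Hdc-/-, against 5.43 to 7.05 CPM in WT, and the highest came from library 3 labelled Hdc-/-. Its interval was the widest of the 9, at -0.13 to 0.66 around a log2 fold change of 0.26 (adjusted p = 0.50 by edgeR), so a change of the size seen for Robo4 lies inside the interval and could not be detected at this depth and spread. Without library 3 labelled Hdc-/- it was 0.13 (adjusted p = 0.81).

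Selplg and Cd34 encode sialomucins, heavily glycosylated stalk-like proteins. PSGL-1, the product of Selplg, binds selectins once its sugars and tyrosines have been modified, and carries the rolling step of homing. Selplg had 362, 378, 340 and 390 CPM in libraries 1, 2, 3 and the unnumbered one labelled Hdc-/-, against 443, 410, 362 and 371 CPM in WT libraries 1 to 4. WT 1 and WT 2 were the highest and the remaining libraries lay among each other. The log2 fold change was -0.11 (SE 0.07, 95% interval -0.25 to 0.04, adjusted p = 0.43 by edgeR), and without WT 1 it was -0.05.

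Cd34, the classical surface marker of progenitors, which the most primitive mouse stem cells carry little of, was the steadiest of the 9. Its level was 1374, 1338, 1356 and 1392 CPM in libraries 1, 2, 3 and the unnumbered one labelled Hdc-/-, against 1377, 1412, 1323 and 1368 CPM in WT libraries 1 to 4. The coefficient of variation was 1.71% in the libraries labelled Hdc-/- and 2.68% in WT. The log2 fold change was -0.01 (SE 0.05, adjusted p = 0.97 by edgeR), and without WT 1 it was -0.0013. The 95% interval from all libraries, -0.10 to 0.09, bounds any change of the group means within these samples to a small fraction of the level. Cd47, whose product binds SIRPα on macrophages and restrains engulfment of the cell, was almost as steady, at 1091 ± 19.3 CPM in the libraries labelled Hdc-/-, against 1067 ± 53.6 CPM in WT (SD, n = 4 each). The lowest value, 986 CPM, came from WT 2, and the other 7 libraries lay between 1069 and 1116 CPM. Its log2 fold change was 0.03 (SE 0.05, 95% interval -0.07 to 0.14, adjusted p = 0.79 by edgeR).

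Levels can be set side by side between genes only per length, here as CPM per kilobase of the merged exons in GENCODE M21. On that scale the order in WT was Cd34 (188 ± 5.04), Cd47 (170 ± 8.55), Selplg (92.9 ± 8.77), Icam2 (46.8 ± 6.09), Esam (18.6 ± 2.50), Cxcr4 (15.9 ± 4.29), Icam1 (13.5 ± 0.58), Robo4 (8.08 ± 0.47) and Jam3 (1.93 ± 0.21; SD, n = 4). In the libraries labelled Hdc-/- the order was the same except that Cxcr4 (17.8 ± 2.05) and Esam (17.6 ± 2.15) changed places, a difference far inside their spread. Icam1 in these libraries reached 16.3 ± 0.99 and overlapped with both, whereas in WT it overlapped with Cxcr4 and not with Esam. The remaining neighbours in the order did not overlap in either group. The exon lengths come from a later genome build than the counts, and reads of SMARTer libraries need not cover a transcript evenly, so the order is a description of level and not of molecule numbers.

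**Figure D4:**
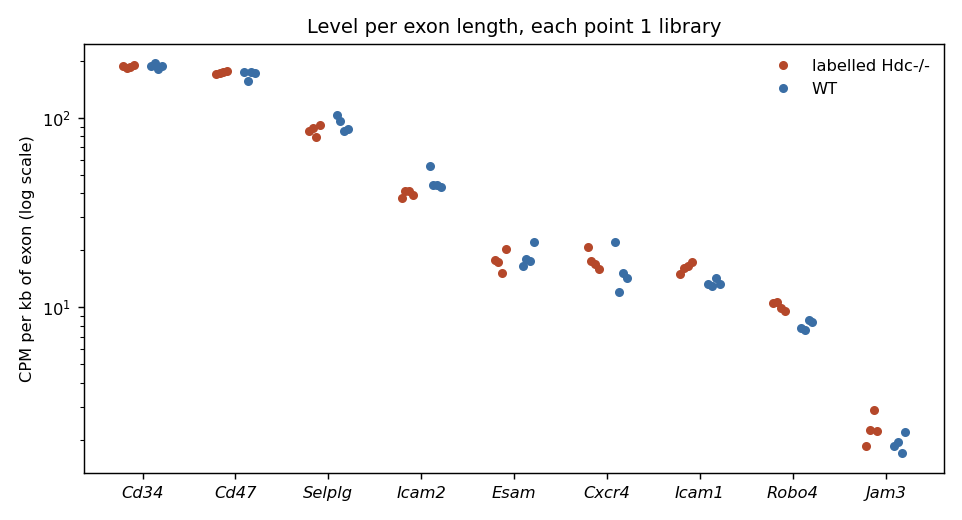
CPM per kilobase of merged exon (vertical axis, log scale) of the 9 genes in each library labelled Hdc-/- (orange, left of each pair) and each WT library (blue, right). Levels span from about 2 for Jam3 to about 188 for Cd34, and the points of Esam, Cxcr4 and Icam1 lie close together.

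Of the 9 genes, 4 lie on chromosome 9, 2 on chromosome 1 and the rest on chromosomes 5, 11 and 16; none lies on chromosome 2, which carries Hdc. On chromosome 9, Robo4 and Esam are near neighbours: in the RefSeq order of protein-coding genes only Robo3 and Msantd2 stand between them. Robo4 rose and Esam did not pass; the difference between them was not tested. Robo3, a guidance receptor known from commissural axons, had 1.1 to 4.0 CPM in all 8 libraries and did not pass (0.58, SE 0.34, adjusted p = 0.39 by edgeR; 0.36 without WT 3). Icam1 is followed by Icam4, a red cell adhesion molecule, which did not pass (0.22, SE 0.16, adjusted p = 0.49 by edgeR). Antisense genes share exonic bases with Cd34, Icam1 and Jam3 in GENCODE M21. Since the kit does not mark strand, reads of a gene and its antisense partner cannot be told apart there. The partner of Cd34, Gm16897, held 11.95 ± 2.47 CPM in the libraries labelled Hdc-/-, against 10.4 ± 1.91 CPM in WT (SD, n = 4 each), far below the level of Cd34. How many antisense reads entered the count of Cd34 cannot be told from this value, since the counting rule is not known.

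Partner genes of the 9 were followed in 9 lists with 104 genes, of which 92 were tested. In edgeR 3 rose and 3 fell, 6.52% of those tested, where 4.76% of all tested genes were called in either direction; the median log2 fold change was 0.02. All 3 that rose encode integrin subunits. In the list of integrins and Cd44, 3 of 13 rose and 1 fell in edgeR (median 0.11), and DESeq2 called 4 higher and 1 lower. Itgal, the α subunit of LFA-1, rose to 189.6 ± 9.90 CPM in the libraries labelled Hdc-/-, against 145 ± 10.9 CPM in WT (SD, n = 4 each; log2 fold change 0.39, SE 0.07, adjusted p = 0.0023 by edgeR). Itgb2, which encodes the β subunit of LFA-1 and of other leukocyte integrins, fell to 137 ± 4.03 CPM in the libraries labelled Hdc-/-, against 164 ± 7.74 CPM in WT (-0.27, SE 0.06, adjusted p = 0.016 by edgeR). Every library labelled Hdc-/- was above every WT library for Itgal and below every WT library for Itgb2. Beside these stand the log2 fold changes of the ligand genes, 0.27 for Icam1 and -0.23 for Icam2, neither of which passed. Itgav, an α subunit that pairs with several β subunits, rose by 0.57 (SE 0.11), and Itga4, the α subunit of the VCAM-1 receptor VLA-4, by 0.23 (SE 0.06). The calls of Itgb2, Itga4 and Itgav ended in 6, 8 and 1 of 19 alternatives.

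**Figure D5:**
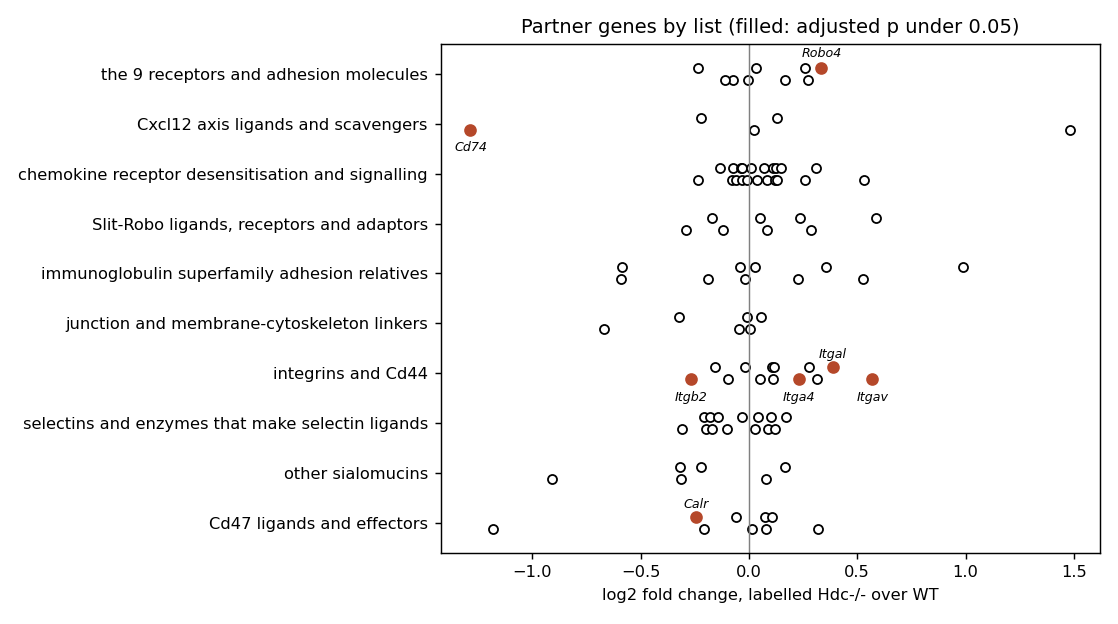
Log2 fold change, the libraries labelled Hdc-/- over WT (horizontal axis), of every tested gene of the 9 partner lists and, in the top row, of the 9 genes themselves; filled points have an adjusted p under 0.05. Robo4, 3 integrin genes on the right and Itgb2, Calr and Cd74 on the left are the filled points.

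On the side of Cxcr4, its ligand and the alternative receptor were scarce. Cxcl12, named after its values were seen, had 36 to 101 reads in the libraries labelled Hdc-/- and 9 to 43 reads in WT (log2 fold change 1.48, SE 0.45, adjusted p = 0.077 by edgeR), and WT 1 held the 43. It passed with all 8 libraries in DESeq2 (adjusted p = 0.028) and limma-voom (0.0498, and 0.011 with sample weights). In edgeR it passed without WT 1, at a log2 fold change of 2.09 (adjusted p = 0.0088). It did not pass in the remaining 15 of 19 alternatives, with an adjusted p of up to 0.27 by edgeR (without library 3 labelled Hdc-/-). Cxcr7, the scavenger receptor of CXCL12, had at most 7 reads in any library and was not tested. Of 5 tested genes of this list 1 fell and none rose in edgeR, where DESeq2 and limma-voom add Cxcl12 as higher (median 0.02). Cd74, the MHC class II invariant chain and a receptor of the cytokine MIF, fell by 1.29 (SE 0.13, adjusted p = 3.4e-05 by edgeR). None of 21 tested genes of chemokine receptor desensitisation and signalling passed in edgeR, and the median was 0.04. At an unadjusted p under 0.05 stood 4, where 18.7% of all tested genes did. The smallest p in that list were those of Rgs1, a regulator that shortens Gi signalling (0.31, SE 0.09, adjusted p = 0.077), and of Arrb2, β-arrestin 2 (-0.24, SE 0.08, adjusted p = 0.097). Both passed in DESeq2 (adjusted p = 0.037 for each), and Rgs1 also with sample weights, without library 1 labelled Hdc-/- and without WT 1. Rgs1 did not pass in the remaining 15 of 19 alternatives, nor Arrb2 in the remaining 18.

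Other Robo receptors and the Slit ligands had few or no reads. Of 13 genes of this pathway, adaptors included, 5 were not tested, among them Slit2 and Slit3 with at most 18 and 10 reads in any library, Robo1 with at most 10, and Robo2 with 0. Of the 8 that were tested none passed in edgeR or had an unadjusted p under 0.05, where 18.7% of all tested genes had. The median was 0.07, and DESeq2 and limma-voom called 0. Srgap3, which encodes a GTPase-activating protein that binds Robo receptors, had the smallest p (0.23, SE 0.11, adjusted p = 0.28).

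Immunoglobulin-type relatives did not pass either. None of 10 tested genes was called in edgeR, and the median was 0.01. At an unadjusted p under 0.05 stood 3, all of them higher, where 9.26% of all tested genes were higher at that level. Vcam1, a ligand of VLA-4 that macrophages of the marrow also carry, had 26.2 to 33.9 CPM in the libraries labelled Hdc-/-, against 14.8 to 25.9 CPM in WT (0.53, SE 0.16, adjusted p = 0.067). Vcam1 passed in DESeq2, with sample weights and without WT 1 or WT 2. In the remaining 15 of 19 alternatives it did not pass. Jam2, which encodes the partner of JAM-C, had 1.9 to 5.6 CPM in the libraries labelled Hdc-/-, against 1.3 to 2.1 CPM in WT (0.99, SE 0.34, adjusted p = 0.12), and without the unnumbered library labelled Hdc-/- it was 0.66 (adjusted p = 0.38). Among 6 tested junction and cytoskeleton linkers none passed in edgeR (median -0.03), and DESeq2 and limma-voom called 0. Of these linkers 1 had an unadjusted p under 0.05, where 18.7% of all tested genes had. Actn1, an α-actinin that binds the tails of ICAM proteins, had the smallest p there (-0.32, SE 0.12, adjusted p = 0.14), and Tjp1, the tight junction scaffold ZO-1, followed (-0.67, SE 0.33, adjusted p = 0.30).

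For PSGL-1 and CD34, the counter-receptors and the enzymes that build selectin ligands were measured. None of 14 genes of that list passed in edgeR, and the median was -0.07. At an unadjusted p under 0.05 stood 3, all of them lower, where 18.7% of all tested genes stood in either direction. DESeq2 and limma-voom called 0 there and in the list of other sialomucins. Selp, which encodes P-selectin, stood at -0.31 on the log2 scale (SE 0.13, adjusted p = 0.22), and St3gal4, a sialyltransferase gene, at -0.18 (SE 0.08, adjusted p = 0.22). Of 6 genes listed as other sialomucins none passed in edgeR, and the median was -0.27. At an unadjusted p under 0.05 stood 1, where 18.7% of all tested genes did. That gene was Prom1, which encodes a membrane glycoprotein and was listed here although it is not a sialomucin. Prom1 (-0.91, SE 0.35, adjusted p = 0.17) stood at 1.4 to 1.7 CPM in the libraries labelled Hdc-/-, against 1.8 to 5.0 CPM in WT. The highest value came from WT 2, and without it the log2 fold change was -0.55 (adjusted p = 0.48). Spn, the gene of leukosialin, came to 181 to 203 CPM in the libraries labelled Hdc-/-, against 197 to 352 CPM in WT (-0.32, SE 0.16, adjusted p = 0.32), with the highest value in WT 1. Without WT 1 it was -0.08 (adjusted p = 0.46).

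Among 9 genes around Cd47, 1 fell and none rose in edgeR (median 0.01), and DESeq2 called 2 lower, Calr and Thbs1. Thbs1, the gene of the CD47 ligand thrombospondin-1, named after its values were seen, had the largest log2 fold change of the list (-1.18, SE 0.38, adjusted p = 0.091 by edgeR). Its level was low, 3.03 ± 1.21 CPM in the libraries labelled Hdc-/-, against 6.92 ± 4.27 CPM in WT (SD, n = 4 each). The groups overlapped. Calr, the endoplasmic reticulum chaperone calreticulin, which at the cell surface serves as a signal for engulfment, fell to 326 ± 25.2 CPM in the libraries labelled Hdc-/-, against 387 ± 18.6 CPM in WT (SD, n = 4 each; -0.25, SE 0.06, adjusted p = 0.033 by edgeR), and its call ended in 7 of 19 alternatives. Sirpa, the gene of the CD47 receptor, named after its values were seen, did not pass (0.07, SE 0.08, adjusted p = 0.69).

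The 3 tested genes whose pattern over the 8 libraries was most like that of Robo4, by the root mean square difference of standardised log2 CPM, were Carns1 (0.218), Fubp1 (0.219) and Itgal (0.223). Carns1 encodes carnosine synthase and Fubp1 a DNA-binding regulator of Myc. Their log2 fold changes, 0.47 for Carns1, 0.17 for Fubp1 and 0.39 for Itgal, are given as a description, since likeness to Robo4 chose them.

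Markers of the sorted cells and of other cell types moved with the groups, and their part in the values above was not tested. Kit, Flt3 and the other stem and progenitor markers were all detected and tested. Their summed level was 4910 to 5075 CPM in the libraries labelled Hdc-/-, against 3879 to 4680 CPM in WT, with 3 of 14 higher and 1 lower. Flt3, a cytokine receptor gene, rose by 0.24 on the log2 scale, and Ly6a, which encodes Sca-1, fell by 1.15. The calls of Flt3 and Gp9, a platelet gene, ended in 5 of 19 alternatives each. Neutrophil markers fell in 9 of 9 tested, with sums of 766 to 1342 CPM in the libraries labelled Hdc-/-, against 2498 to 3820 CPM in WT (log2 fold change -1.39 for Mmp9 and -1.32 for Cd177). B cell markers fell in 6 of 7 tested in edgeR and 7 in DESeq2 (141 to 153 CPM in the libraries labelled Hdc-/-, against 207 to 269 CPM in WT; log2 fold change -1.33 for Cd79a and -1.16 for Ebf1). Red cell markers rose in 5 of 6 tested, with sums of 277 to 313 CPM in the libraries labelled Hdc-/-, against 50.9 to 63.4 CPM in WT (log2 fold change 5.21 for Alas2 and 6.46 for Slc4a1). Of the 2 tested T and NK cell markers 1 fell, Nkg7, with a log2 fold change of -0.40, while Cd3e had at most 4 reads. The sums of this list were 261 to 277 CPM in the libraries labelled Hdc-/-, against 326 to 414 CPM in WT. Nearly all of each sum was Nkg7, so the sums describe that gene and not the list as a set. Klrb1c, the other tested marker, did not pass (log2 fold change 0.13, SE 0.34, adjusted p = 0.89 by edgeR).

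Since Robo4, Esam, Jam3 and Icam2 are also genes of endothelium, and Esam, Jam3 and Icam2 of platelets, the markers of both are given beside them. Of 6 tested endothelial markers 1 fell and none rose in edgeR: Cldn5, a claudin of tight junctions, fell by 2.19. Its reads were few, 9 to 16 in the libraries labelled Hdc-/- and 34 to 68 in WT. DESeq2 also called Tek higher, which is named after its values were seen (0.43, SE 0.14, adjusted p = 0.085 by edgeR). The defining marker Cdh5 had at most 9 reads in any library, Esm1 17 and Ptprb 0. Plvap, Stab2 and Kdr had up to 62, 51 and 30 reads and did not pass (log2 fold change -0.22, -0.25 and -0.55 in edgeR). The summed level was 107 to 126 CPM in the libraries labelled Hdc-/-, against 94.1 to 112 CPM in WT. It came mainly from Tie1 and Tek, which stem cells express too. Whether endothelial cells were among the sorted cells was not tested. Of 7 tested megakaryocyte markers 1 rose in edgeR, Gp9 by 0.54, and 2 in DESeq2, with sums of 59.5 to 65.3 CPM in the libraries labelled Hdc-/-, against 47.5 to 71.3 CPM in WT. None of 7 tested macrophage markers passed in edgeR, and 2 were called by DESeq2. At an unadjusted p under 0.05 stood 4, all higher, where 9.26% of all tested genes were higher at that level. Sums were 50.6 to 55.7 CPM in the libraries labelled Hdc-/-, against 33.1 to 46.1 CPM in WT. None of 3 tested stromal markers passed or had an unadjusted p under 0.05, where 18.7% of all tested genes had, and DESeq2 called 0. Their sums were 79.2 to 93.4 CPM in the libraries labelled Hdc-/-, against 52.2 to 83.1 CPM in WT, nearly all from Pdgfrb. Lepr, a defining gene of the stromal cells that make CXCL12, had at most 4 reads in any library.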

How the data were processed

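The authors deposited raw read counts per gene symbol for 8 libraries; per the labels' protocols RNA was amplified with a SMARTer kit and made into Nextera XT libraries. The submitters' processing notes name build mm9 and the tools TopHat2 2.0.4, Bowtie2, HTSeq 0.6.1 and bcl2fastq 1.8.4, without their settings. The sources used here do not give the annotation, the strand setting or how reads over several genes were counted. Of 23284 entries, 2 bear only a number and were left out (at most 0.032% of the reads). Counts have no molecular identifiers. Columns numbered as the titles were matched to them; the fourth of the group labelled Hdc-/- bears another number and was used as an unnumbered member of its group. Codes in the column names number each group's libraries in one run; if they mark preparation, batch and group cannot be told apart. No label says whether the samples of a group are separate mice; p-values then reflect only how these samples vary, which may be technical.

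Genes kept by filterByExpr (minimum count 10, total 15) were tested with edgeR 4.0.16 in R 4.3.3 (robust glmQLFit, glmQLFTest, two-sided, TMM scaling, no covariate), with Benjamini-Hochberg adjustment over 13005 genes and a threshold of 0.05. Every adjusted p in the text is from this test unless another is named. The SE is the log2 fold change over the square root of F. Alternatives used DESeq2 1.42.0, limma-voom 3.58.1, other scalings and filters, a replicate block and each library left out. Limma-voom was run with and without sample weights. Where the text says that limma-voom called 0, it called 0 in both. The code was tested on simulated counts. The members and lists were chosen with earlier results of these data known. Named are the 9 members, Hdc, called genes of each partner list (up to 4, otherwise the 2 with the smallest p), up to 2 called genes of each marker list and the 3 genes most like each called member. Exon lengths and antisense genes come from GENCODE M21, gene order and promoters from RefSeq GRCm38.p6, which differ from the build of the counts. 1 gene of the selectin list is not reported here by name.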

Additional observations from a re-analysis of the deposited data

Results flagged for a closer look

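In 7 of 88 groups of 4 libraries checked over 44 genes, 1 library lay far from the other 3; chance gives about 1 in 20. WT 1 had 106 CPM of Icam2, where WT 2, 3 and 4 had 82.0 to 84.3. It also had 352 CPM of Spn, against 197 to 214, and 28.3 CPM of Cd79a, a B cell gene, against 21.3 to 21.5 CPM. WT 2 had 986 CPM of Cd47, and the other WT libraries 1088 to 1099. Among the libraries labelled Hdc-/-, library 3 had 33.9 CPM of Vcam1 (the others 26.2 to 27.5), library 2 had 49.2 CPM of Arrb2 (the others 50.6 to 50.7) and the unnumbered library 30.5 CPM of Mmp9 (the others 22.3 to 23.5).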

How the results depend on the processing

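Robo4 was higher in all 19 alternatives fitted (0.31 to 0.38), and its call was lost in 7 of them: 5 with 1 library left out, and both with libraries 1 to 3 of each group. No shared deviation was seen in same-numbered libraries: their deviations from their group means correlated at -0.0607, -0.0165 and -0.000331. Whether the samples were handled in pairs cannot be told from these values alone. In the replicate block fit over these 3 pairs 0 of the 9 members rose, with 123 genes higher and 189 lower and 1 partner gene in each direction. The same 6 libraries were also fitted without the block, an alternative chosen after the data were seen. This gave 0 members, 134 genes higher, 211 lower, and 2 partner genes higher and 1 lower. Both fits leave out the unnumbered library labelled Hdc-/- and WT 4, so the number and the choice of libraries cannot be told apart. With all libraries 267 genes were higher and 352 lower. DESeq2 called 448 higher, 2 members (Robo4 and Icam1), and 7 partner genes higher and 5 lower; limma-voom with sample weights called 422 higher, 2 members and 7 partner genes higher. Upper quartile scaling and library size alone also gave 2 members. With 1 library left out, genes higher ran from 137 (without library 3 labelled Hdc-/-) to 382 (without WT 1) and genes lower from 242 to 433, members higher from 0 to 2, partner genes higher from 2 to 7 (without WT 1) and lower from 1 (without the unnumbered library labelled Hdc-/-, or WT 2) to 3. Without WT 1, 2 members rose. The sign of Cd34 turned under upper quartile scaling (0.0021) and library size alone (0.0014), and its values with 1 library left out ran from -0.022 to 0.0093. Those of Esam ran from -0.15 to 0.023 (without WT 4) and those of Cd47 from -0.0042 (without WT 2) to 0.046. Sirpa turned in the block fit (-0.021) and over the same 6 libraries (-0.023). None of these was called. Exact permutation tests over the 70 splits gave Robo4, Icam1 and Icam2 the smallest p possible, 0.0286, without adjustment. Any gene whose groups do not overlap gets this p, and the groups did not overlap in 12.5% of all tested genes. For these genes the test therefore repeats the lack of overlap and adds no support. The cause of the shifts between alternatives was not tested.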

Other observations

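Among the WT libraries, WT 1 was the highest for Cxcr4 (39.8 CPM), Icam2 (106 CPM), Selplg (443 CPM) and Cxcl12 (43 reads), and the lowest for Esam (47.4 CPM), Flt3 (717 CPM) and the summed stem and progenitor markers (3879 CPM). These values were picked after they were seen and carry no test.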
